A study of Homo sapiens with 2 samples.

Results

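The genes described here encode the nuclear pore complex and the machinery that moves RNA and protein through it. They are 46 protein-coding genes of 19866 in the annotation, chosen by function (nucleoporins, the THO and TREX complexes, export and transport receptors). The choice was made with earlier results of these data known. Their sites were selected from the measured list as every deletion site inside their gene bodies. 19 of the 2960 listed sites met that rule, and they lay in 14 of the 46 genes. The sites come from crosslinking and immunoprecipitation of the splicing factor SF3A1 in 2 libraries, which make up 1 group without a control group. The cells were C4-2B, an epithelial prostate cancer line, in a derivative made ready for CRISPR interference; they were harvested 48 h after seeding and crosslinked with 254 nm light at a dose of 400 mJ/cm2, and each immunoprecipitation took 2 µg of antibody. The authors pooled both libraries before listing sites, so no value carries an error between replicates and the depth of each library is unknown.

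SF3A1 belongs to the U2 small nuclear ribonucleoprotein, which recognises the branch site of introns early in splicing. The nuclear pore is a ring-shaped channel through the nuclear envelope, built of scaffold rings, membrane anchors, a central channel lined with phenylalanine-glycine repeats, a basket on the nuclear side and filaments on the cytoplasmic side. Messenger RNA reaches it after the TREX complex, which is loaded in step with splicing, hands the RNA to the export receptor NXF1-NXT1. Proteins and some RNAs are carried instead by importins and exportins, whose loading is set by the GTPase Ran.

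At each site a number of sequenced tags carried a deletion, which reverse transcriptase can leave where a protein was crosslinked. A deleted share is that number divided by all tags over the site. Its interval is an exact Clopper-Pearson 95% interval, which covers counting error only and assumes that tags are independent molecules. Over the 19 sites there were 1357 tags, of which 1170 carried the deletion. Tags over a site ranged from 14 to 219 with a median of 61, against a median of 52 over the 2571 sites in protein-coding gene bodies. Regarding the cell label, the prostate luminal marker genes KLK2, KLK3, FOLH1 and TMPRSS2 each held a site and 4 others on the list held none. Over all protein-coding genes 10.1% held a site. All 5 markers of other cell types held none (0%, interval 0 to 52.2). At the site rates of genes of like length only 0.512 of those 5 would hold a site, so their count cannot tell cell types apart.

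Sites were found in 14 of the 46 genes, or 30.4% (interval 17.7 to 45.8), and 10.1% of all protein-coding genes held a site. Longer genes held sites more often, so each gene was also set beside protein-coding genes of its own length, in 10 bands of equal gene number. At the site rates of those bands, 5.46 of the 46 genes would hold a site. The higher counts lay in a few bands. In the band of 24.5 to 35.7 kb, 4 of 7 held a site (NUP54, NUP43, NUP88 and KPNB1), where 10.4% of all genes did. In the band of 52.8 to 84.3 kb it was 5 of 11 (NDC1, TPR, XPO1, NUP188 and NUP107) beside 14.3%, and in that of 84.3 to 153 kb it was 3 of 7 (NUP210, NUP214 and THOC2) beside 18.4%. Between them, at 35.7 to 52.8 kb, NUP35 alone of 8 genes held a site, near the 12.6% of all genes there. The 9 genes under 16.6 kb held a site in 1 case, NXF1. No test is given for these counts, because the genes were proposed with the site list known. RNA abundance was not measured, so its part in the counts was not tested.

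**Figure D1:**
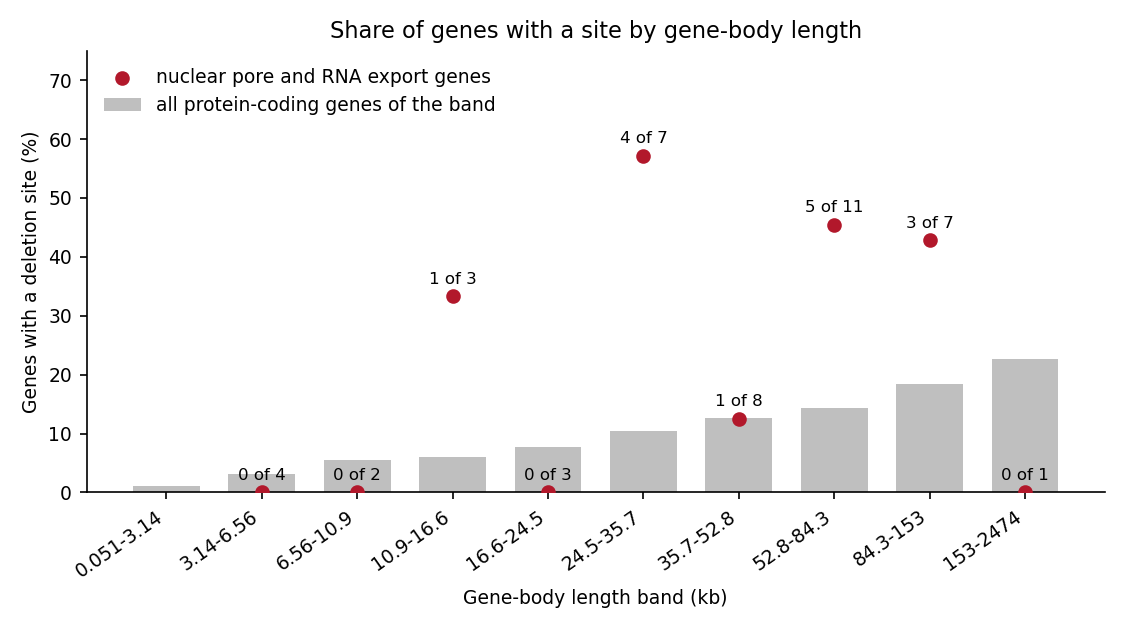
Percent of genes with at least 1 deletion site (vertical axis) in 10 bands of gene-body length in kb (horizontal axis). Grey bars stand for all protein-coding genes of a band and red points for the nuclear pore and RNA export genes, labelled with their counts. The points lie above the bars at 10.9 to 16.6 kb (1 of 3), 24.5 to 35.7 kb (4 of 7), 52.8 to 84.3 kb (5 of 11) and 84.3 to 153 kb (3 of 7). At 35.7 to 52.8 kb (1 of 8) the point lies at the bar. The points are at 0, below the bars, at 3.14 to 6.56 kb (0 of 4), 6.56 to 10.9 kb (0 of 2), 16.6 to 24.5 kb (0 of 3) and from 153 kb (0 of 1).

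Several of the genes held more than a single site. NUP35, NUP210, NUP88, XPO1 and KPNB1 held 2 sites each, so 5 of 46 genes (10.9%, interval 3.62 to 23.6) had at least 2, against 2.09% of all protein-coding genes. At the rates of the length bands 1.03 would. The paired sites were far apart in every case: 11191 nt in NUP35, 17074 nt in NUP88, 20758 nt in NUP210, 25793 nt in KPNB1 and 25942 nt in XPO1. None of the genes held 3 sites. Per length, NXF1 stood highest with 7.51 sites per 100 kb of gene body, from its single site in 13.3 kb. NUP88 had 5.74, KPNB1 5.62, NUP35 4.53 and NUP43 3.99. THOC2, the longest of the 14 at 132 kb, stood lowest with 0.755. Among genes with a single site the order of these values is the order of gene length alone.

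The outer ring of the pore is built of the Y complex, a branched scaffold. Of its 8 genes, NUP107 and NUP43 held a site, where the rates of their length bands give 0.966. NUP107 is a core subunit of the stem of the Y. Its gene occupies chromosome 12 from 68686978 to 68745809, and the site at 68731766 on the plus strand had the deletion in 41 of 42 tags (97.6%, interval 87.4 to 99.9). The NUP43 gene, which encodes a propeller-shaped subunit, lies on chromosome 6 from 149724315 to 149749358. Its site at 149728615 on the minus strand was thinly covered, with the deletion in 16 of 16 tags (100%, interval 79.4 to 100). No site lay in NUP133, NUP160, NUP85, NUP37, SEH1L or SEC13.

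In the inner ring, which joins the scaffold to the membrane and the channel, NUP188 and NUP35 of 5 genes held sites. The length bands give 0.779 of the 5. The NUP188 site (chromosome 9, 128988229, plus strand) had the most deleted tags of the 19, 125 of 126 (99.2%, interval 95.7 to 100), and 86.8% of all listed sites had fewer. NUP188 spans 128947699 to 129007096. NUP35, a small membrane-binding subunit, spans 183117514 to 183161680 on chromosome 2 and held 2 sites of very different coverage. The site at 183150281 had 113 of 114 tags deleted (99.1%, interval 95.2 to 100). The site at 183161472 had 14 of 14 (100%, interval 76.8 to 100) and lay 208 nt from the 3′ end of the gene body, the nearest of the 19 to a 3′ end. NUP205, NUP155 and NUP93 held none.

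The central channel is filled by nucleoporins whose disordered repeats form the permeability barrier. Of 4 such genes, NUP54 held 1 site, at 76135014 on the minus strand of chromosome 4 (gene body 76114664 to 76148397), with 48 of 48 tags deleted (100%, interval 92.6 to 100). NUP98, NUP62 and NUP58 held none, and the length bands give 0.491 of the 4.

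Among the 4 membrane nucleoporins, NUP210 and NDC1 held sites and POM121 and AAAS did not, where the length bands give 0.529. AAAS encodes aladin, which NDC1 anchors at the pore. NUP210, a glycoprotein that rings the pore within the envelope, occupies chromosome 3 from 13316235 to 13420322. Its site at 13351824 had 86 of 88 tags deleted (97.7%, interval 92 to 99.7), and that at 13331066 had 63 of 63 (100%, interval 94.3 to 100), both on the minus strand. NDC1, which anchors the pore in the membrane, spans 53765478 to 53838296 on chromosome 1. Its site at 53812278 on the minus strand had 114 of 114 tags deleted (100%, interval 96.8 to 100) and was the best covered of the 9 complete sites.

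The nuclear basket is the docking side for messenger RNA leaving the nucleoplasm. TPR, whose long coiled coils form the basket filaments, held 1 site at 186327833 on the minus strand of chromosome 1 (gene body 186311652 to 186375253). All of its 61 tags were deleted (100%, interval 94.1 to 100). NUP153 and NUP50, the other basket genes, held none, and the length bands give 0.404 of the 3.

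On the cytoplasmic side, export complexes are taken apart. NUP214 and NUP88, which bind each other there, both held sites, as 2 of 6 genes, where the length bands give 0.868. NUP214 spans 131125586 to 131234663 on chromosome 9, and its site at 131166770 on the plus strand was only partly deleted, with 78 of 98 tags (79.6%, interval 70.3 to 87.1). NUP88 (chromosome 17, 5384833 to 5419662) had 57 of 57 tags at 5406236 (100%, interval 93.7 to 100) and 75 of 77 at 5389162 (97.4%, interval 90.9 to 99.7). The intervals of both NUP88 sites lie above that of the NUP214 site. RANBP2, RAE1, GLE1 and DDX19B, the helicase that NUP214 and GLE1 regulate, held none. The RANBP2 body in the annotation is 1123 kb long and overlaps 18 other genes, and RANBP2 shares sequence with the RGPD genes, 7 of which are annotated and held no site either.

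Of the 9 THO and TREX genes, which couple RNA processing to export, THOC2 alone held a site. THOC2 is the scaffold of the THO complex. The site lay at 123641654 on the minus strand of chromosome X (gene body 123600569 to 123733052) and had 61 of 61 tags deleted (100%, interval 94.1 to 100). THOC1, THOC3, THOC5, THOC6, THOC7, ALYREF, DDX39A and DDX39B held none. These are mostly short genes: at the rates of their length bands 0.786 of the 9 would hold a site.

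NXF1, the receptor that carries most messenger RNA through the pore, held the site with the lowest deleted share of the 19. The gene is 13.3 kb long, on chromosome 11 from 62792130 to 62805440, and in its length band 5.94% of protein-coding genes held a site. Its site at 62800643 on the minus strand, 4798 nt from the 5′ end of the gene, had the most tags of the 19. Of 219 tags 71 carried the deletion, a share of 32.4% (interval 26.3 to 39.1), and 148 did not. No other interval among the 19 sites reaches down to this one; the nearest, at an XPO1 site, begins at 67.6%. By number of tags it ranked 114 of all 2960 sites. The other 18 sites had at most 126 tags, so none had like coverage. Of the 52 protein-coding sites with 200 to 248 tags, including this one, 5 had a share under 90% (9.62%, interval 3.2 to 21). The lowest share among those 52 was 11.4%. NXT1, the partner of NXF1, and MCM3AP, the scaffold of the TREX-2 complex, held no site. For NXF1, NXT1 and MCM3AP together the length bands give 0.216.

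Among the 4 genes of Ran-dependent transport, the exportin XPO1 and the importin KPNB1 held 2 sites each. The length bands give 0.42 of the 4 genes with a site. XPO1, also called CRM1, carries proteins with a leucine-rich export signal and some RNAs. Its gene spans 61477849 to 61538612 on chromosome 2. Both of its sites, on the minus strand, were incompletely deleted: 88 of 96 tags at 61537788 (91.7%, interval 84.2 to 96.3) and 21 of 24 at 61511846 (87.5%, interval 67.6 to 97.3). These intervals overlap widely, and a difference between the 2 shares was not tested. KPNB1, importin beta, spans 47649919 to 47685505 on chromosome 17, and its 2 plus-strand sites were thinly covered, with 14 of 14 tags at 47651131 (100%, interval 76.8 to 100) and 24 of 25 at 47676924 (96%, interval 79.6 to 99.9). XPO5, the exporter of microRNA precursors, and RAN itself held none.

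**Figure D2:**
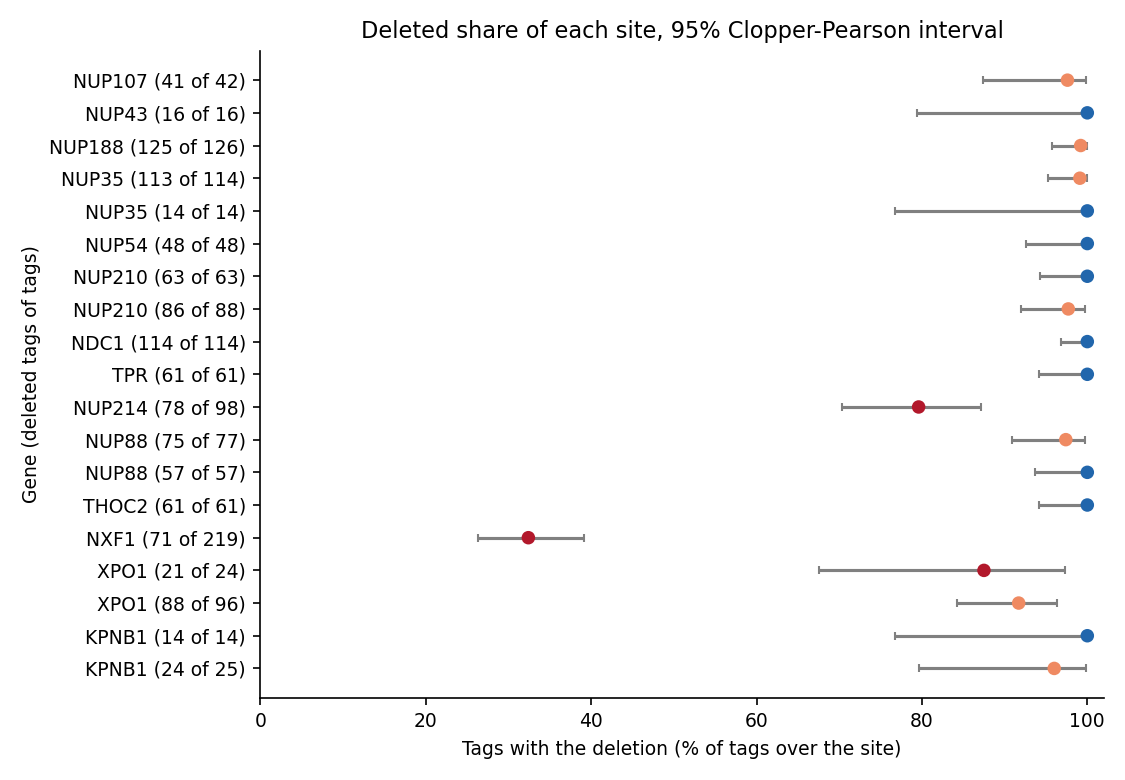
Percent of tags with the deletion (horizontal axis) at each of the 19 sites (vertical axis, gene with deleted tags and tags); bars are 95% Clopper-Pearson intervals. Blue points are complete sites, orange points 90% or more, and red points under 90%: NXF1 at 32.4%, NUP214 at 79.6% and an XPO1 site at 87.5%.

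The deletion was present in every tag at 9 of the 19 sites (47.4%, interval 24.4 to 71.1), against 1988 of 2571 sites in protein-coding genes (77.3%, interval 75.7 to 78.9). Most of the incomplete sites had very few undeleted tags. At 6 of the 10 incomplete sites only 1 or 2 tags lacked the deletion, and the median share was 99.2% beside 100% over protein-coding genes. The part of coverage in this was not tested. With 50 to 129 tags over the site, 5 of 11 sites were complete (45.5%, interval 16.7 to 76.6), beside 71.9% (interval 69 to 74.7) of the 1011 protein-coding sites in that range; this range was chosen after the values were seen, and these intervals overlap. Shares under 90% stood at 3 of 19 sites (15.8%, interval 3.38 to 39.6), beside 5.83% of protein-coding sites. By gene, NXF1, NUP214 and XPO1, or 6.52% of the 46 (interval 1.37 to 17.9), had such a site, beside 0.73% of all protein-coding genes. The length bands give 0.374 of the 46. Part of this gap is that more of the 46 held any site. Among genes with a site it was 3 of 14, beside 145 of 2014 protein-coding genes. With so few sites these differences are described and not tested.

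**Figure D3:**
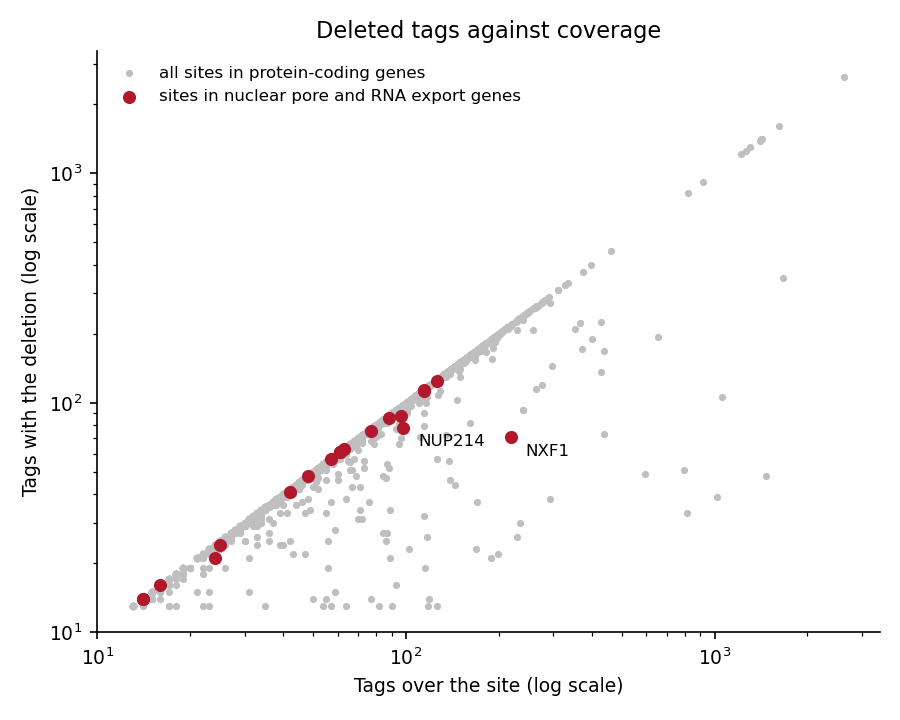
Tags with the deletion (vertical axis, log scale) against tags over the site (horizontal axis, log scale), for all 2571 sites in protein-coding gene bodies (grey) and the 19 sites in nuclear pore and RNA export genes (red). All but NXF1 (71 of 219) and NUP214 (78 of 98) lie on or near the line where every tag is deleted.

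The 19 sites lay on the strand of the gene that holds them wherever that could be read. Gene strand was listed for 42 of the 46 genes, and all 16 sites in those were on it (100%, interval 79.4 to 100). The background was every site covered by a single annotated gene, where that gene was protein-coding with a listed strand. Of these sites 1878 of 1944 (96.6%, interval 95.7 to 97.4) were on the gene strand. The 3 sites of NUP43 and KPNB1 could not be compared, as the strand of these genes was not listed. No other annotated gene, on either strand, covered any of the 19 positions (100%, interval 82.4 to 100). Among all protein-coding sites 90.9% lay in a single gene, a share within that interval.

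The position of the sites along the gene bodies varied. Counted from the 5′ end, 2 lay in the first of 3 equal parts, 7 in the middle and 10 in the last, with a median position 68.2% of the way. The last part thus held 52.6% (interval 28.9 to 75.6), which contains the 35.6% of the 2336 protein-coding sites in a single gene. The first part held 10.5% beside 31.5% of those sites, and the middle part 36.8% beside 32.9%. For NUP43 and KPNB1 the 5′ end was taken from the strand of their 3 sites; without them the parts held 1, 7 and 8 of 16. Both sites of the first part were near a 5′ end: XPO1 at 825 nt and KPNB1 at 1213 nt. NDC1 at 35.7% and NXF1 at 36% of the gene came next. The NUP35 site at 99.5% was the last. Whether sites lay in exons, introns or untranslated regions was not analysed here.

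**Figure D4:**
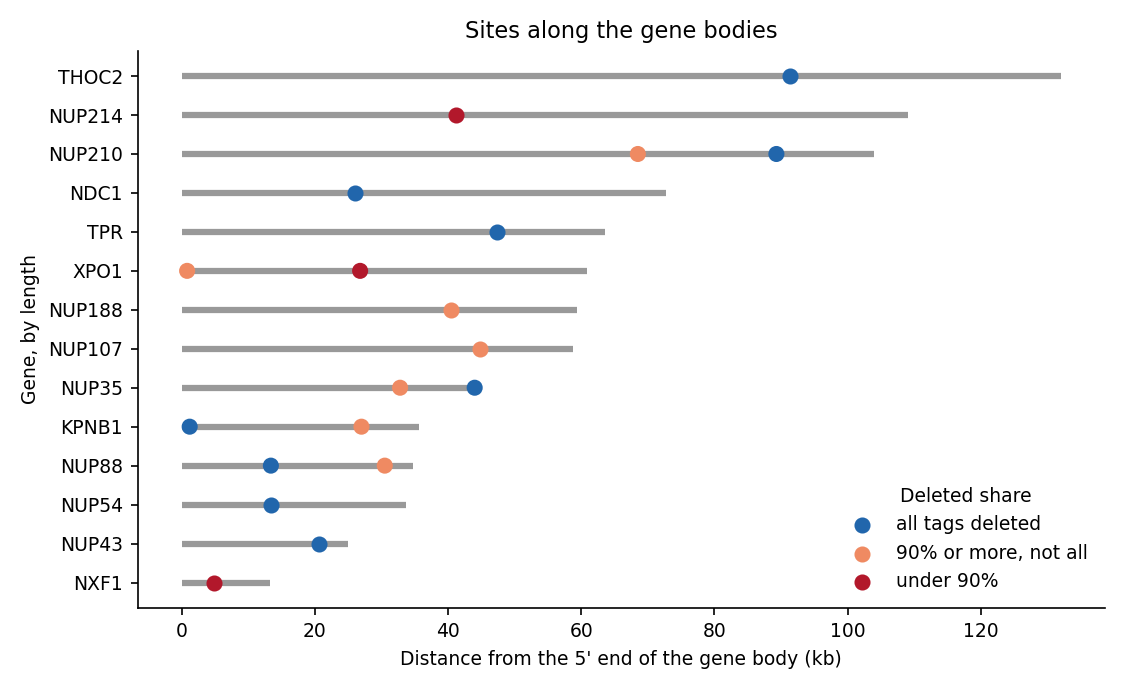
Gene bodies of the 14 genes with a site, drawn to scale from the 5′ end (horizontal axis, kb) and ordered by length; for NUP43 and KPNB1 the 5′ end is taken from the strand of the site. Points are sites, coloured by deleted share. XPO1 and KPNB1 have a site close to the 5′ end, at 825 and 1213 nt, and the other sites lie in the middle or the last part. Of all protein-coding sites in a single gene, 32.9% lie in the middle part and 35.6% in the last.

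In 2 genes a site fell between transcription starts that RefSeq lists for the same gene. A transcript from the downstream start does not contain such a site. No start was listed for NUP43 and KPNB1, so their 3 sites could not be placed in this way. The XPO1 site at 61537788 lay 568 nt downstream of the first listed start and 701 nt upstream of the other. It lay 825 nt from the 5′ end of the gene body, so the first listed start is not that end. The NUP214 site lay 41184 nt downstream of the first start and 23369 nt upstream of the other. The 100 bases before each of these 4 starts are shown because they mark the alternative beginnings of each gene on either side of its site. They are from RefSeq on GRCh38.p14, written 5′ to 3′ on the strand of the gene, with each CG in capitals.
XPO1 first start, chr2:61538357-61538456, minus strand: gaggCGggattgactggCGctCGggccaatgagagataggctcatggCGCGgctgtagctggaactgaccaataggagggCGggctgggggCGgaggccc
XPO1 downstream start, chr2:61537088-61537187, minus strand: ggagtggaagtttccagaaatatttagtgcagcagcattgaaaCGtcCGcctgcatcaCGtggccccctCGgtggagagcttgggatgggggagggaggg
NUP214 first start, chr9:131125486-131125585, plus strand: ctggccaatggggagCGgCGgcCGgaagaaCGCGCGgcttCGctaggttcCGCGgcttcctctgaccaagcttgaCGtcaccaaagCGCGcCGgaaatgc
NUP214 downstream start, chr9:131190039-131190138, plus strand: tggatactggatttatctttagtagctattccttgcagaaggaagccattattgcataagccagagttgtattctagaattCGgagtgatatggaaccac

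The first NUP214 start lies in CG-rich sequence and the downstream one does not. Over the 250 bases before each start, the first NUP214 start had 25 CG dinucleotides and the downstream start 2. For XPO1 these counts were 16 and 13. The median over the 35116 promoter windows of the table was 11. The G and C content of the same windows was 65.2% and 37.6% for NUP214 and 65.2% and 60.4% for XPO1, beside a median of 58%. The sites themselves lie outside the sequence held in the table, so the base that was deleted is not shown.

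No site fell in the 1000 nt on either side of any of the 46 gene bodies. Within 10000 nt, 4 sites lay outside: 4637 nt from NUP98, 6954 nt from THOC6, 8038 nt from NUP50 and 8827 nt from DDX19B. Each was in the body of another gene, namely CHRNA10, BICDL2, KIAA0930 and AARS1. The deletion was complete beside NUP98, at 31 of 31 tags, and beside NUP50, at 65 of 65. The site beside DDX19B had 31 of 72 tags deleted (43.1%) and that beside THOC6 had 73 of 438 (16.7%).

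The 32 genes without a site ranged from 3.72 kb to 1123 kb with a median of 42.5 kb, and the 14 with one from 13.3 to 132 kb with a median of 59.1 kb. Pore genes held sites in 10 of 30 cases (33.3%, interval 17.3 to 52.8) where the length bands give 4.04, and export and transport genes in 4 of 16 (25%, interval 7.27 to 52.4) where they give 1.42. These intervals overlap. The list contains only positions past the threshold of the authors, none with fewer than 13 deleted tags, so a gene without a site may still have been covered.

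A second list held 63 pore, export and transport genes outside the 46. Sites were found in 11 of them (17.5%, interval 9.05 to 29.1), where their length bands give 7.67. Its interval overlaps that of the 46 genes. Among other pore genes, AHCTF1, which starts pore assembly on chromatin, held 1 site, as 1 of 9. Among other mRNA export genes, CHTOP, a TREX subunit, and SUPT6H, a transcription elongation factor, held 1 each, as 2 of 18. Of 6 cap-binding and small RNA export genes, NCBP1, the large cap-binding subunit, and SRRT held 1 each; the SRRT site was complete at 136 of 136 tags. The exportins XPO6 and XPO7 held 1 each, as 2 of 5. Of 19 importins and transportins, the importin alpha gene KPNA1 held 3 sites and IPO9 held 2. The Ran cycle genes RANGAP1 and RANBP3 held 1 each, as 2 of 6. The length bands give 1.19 of the other pore genes, 1.88 of the other mRNA export genes and 2.63 of the importins and transportins. The counts in these roles are near those values. For the cap-binding, exportin and Ran cycle genes the bands give 0.612, 0.803 and 0.563.

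In that second list 11 of 14 sites were complete (78.6%, interval 49.2 to 95.3). Its incomplete sites were in KPNA1 with 35 of 36 tags, RANBP3 with 97 of 104 and IPO9 with 15 of 59. The IPO9 site with 25.4% lay on the minus strand, opposite to the gene.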

How the data were processed

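Crosslinking and immunoprecipitation with an anti-SF3A1 antibody was read out in 2 libraries of 1 group. The authors deposited 1 pooled list of single-base deletion sites, described by its name as unique tags filtered at an FDR of 10 percent. The deleted tags of each line are a whole-number count, pooled by the authors over unique tags and deposited without normalization. The line's name also gives the tags over the position. Build hg38 and the tools BWA 0.7.17, cutadapt, UMI-tools and SAMtools are listed in the submitters' processing notes. For the site caller, version and settings are not given in the sources used.

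Gene bodies came from the RefSeq table of GRCh38.p14, which shares primary chromosome coordinates with hg38; 58954 of 59792 rows, on primary chromosomes with a unique symbol, were used. All 46 symbols matched. Strand came from the RefSeq promoter table (15843 of 19866 protein-coding genes). A site counted for every gene body that covers it, on either strand. Coordinates are 1-based. Length bands hold equal numbers of protein-coding genes, and the value given for a list is the sum of its genes' band rates. The counting was tested on simulated data. No test was made, since the pool has no replicates. The genes and both lists were chosen with earlier results of these data known. Every gene of both lists with a site is named; 1 cell type marker is not reported here. Alternatives covered the choice of sites, gene body, bands and background. Python 3.11.15, numpy 2.4.6, pandas 2.3.3, scipy 1.17.1 and matplotlib 3.10.9 were used.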

Additional observations from a re-analysis of the deposited data

How the results depend on the processing

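The 14 genes and 19 sites were unchanged when sites were merged within 50 nt, limited to those in no other annotated gene, or sought in bodies widened by 1000 nt. At these settings, in order, 10.1%, 8.95% and 10.5% of all protein-coding genes held a site. The length bands give 5.46, 4.77 and 5.6 of the 46 genes. On the listed strand of the gene, 12 genes held 16 sites, since NUP43 and KPNB1 have no listed strand. On that strand 7.96% of all protein-coding genes held a site, and the length bands give 4.29. Among sites with more than the median of 50 deleted tags, 10 of the 46 genes held 12 sites where the length bands give 2.96. Of the 63 other genes 5 held such a site, against 11 as reported. At this setting 5.66% of all protein-coding genes held a site. Among sites with a deleted share under 0.9, 3 of the 46 genes held 3 sites where the bands give 0.374. Of the 63 other genes 1 held such a site, beside 0.73% of all protein-coding genes. Both settings keep fewer sites by construction. With 5 or 20 bands, no bands, or background genes without an overlapping gene, the value for the 46 genes was 4.66 to 5.49, beside 5.46 as reported. The share of complete sites was 41.7% above that median, and 47.4% when sites were merged or limited to 1 annotated gene. The intron share was not run, for want of an exon annotation, and no library could be left out of the pool. Sites with few tags give wide intervals: 14 of 14 deleted tags allow a share as low as 76.8%.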
